A study of Danio rerio with 11 samples.

Results

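ON bipolar cells are the retinal interneurons that depolarise when light increases. Here 8 zebrafish genes that act in their signalling or mark bipolar cells were followed through eye development, with and without the eMIC domain of srrm3. The set consisted of trpm1a, trpm1b, nyx, grm6a, grm6b, gpr179, prkca and vsx1, chosen by symbol, and all 8 were among the 29387 genes with values. The gene table lists trpm1a, nyx, prkca and vsx1 as TRPM1, NYX, PRKCA and VSX1, and it gives the symbol GRM6 to 2 measured genes without saying which is grm6a and which grm6b, so these are named by identifier. A second gene listed as PRKCA was not analysed here.

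RNA sequencing covered 11 libraries. Mutant eyes came from larvae with a mutated eMIC domain of srrm3, a splicing regulator whose eMIC domain drives inclusion of neuronal microexons, and WT eyes came from their siblings, genotyped by fin clip. Each genotype had 1 library per stage, the stages being 48, 60 and 72 hpf (hours after fertilization) and 5 dpf (days after fertilization). Retinae of WT adults gave 2 libraries, and heads of WT fish of the AB strain at 24 hpf gave 1. Every eye library pooled 20 to 60 eyes at 48 to 72 hpf or 20 eyes at 5 dpf, and the adult libraries pooled 5 retinae. All fish were kept at 28 °C with daily light and dark periods. Larval 5 dpf and adult samples carry the label of stranded polyA libraries, and the RNA of the 48 to 72 hpf eyes was extracted with another kit. A difference between 5 dpf or adult and 48 to 72 hpf therefore cannot be told apart from a difference between library sets, but both siblings of a pair always belong to the same set.

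In mammals photoreceptors release glutamate in darkness, which the ON bipolar cell senses with the metabotropic receptor mGluR6, encoded by GRM6 genes. The receptor acts through a Go protein that closes the cation channel TRPM1, and light reopens the channel when glutamate release drops. Nyctalopin (NYX) and the orphan receptor GPR179 hold the receptor, the channel and the RGS proteins that switch Go off together at the dendritic tips. Protein kinase C alpha (PRKCA) is the usual immunohistochemical label of rod ON bipolar cells in mammals, and VSX1 is a homeobox transcription factor of bipolar cells. In mammals, loss of TRPM1, GRM6, NYX or GPR179 abolishes the ON response and causes congenital stationary night blindness.

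Library totals ranged from 37724575 counts in 72 hpf WT eyes to 92560511 counts in adult replicate 2. The srrm3 transcript itself ran from 0.18 cRPKM in the 24 hpf head to 4.24 cRPKM in adult replicate 2, and its log2 change between mutant and WT eyes was 0.24 ± 0.27 (SE, adjusted p = 0.895 by edgeR); a mutated domain need not change the level, so this checks the labels only weakly. Here cRPKM is the deposited value per gene length and library size. Ratios of cRPKM were not adjusted further for the make-up of a library, whereas the edgeR fits on counts were (TMM). A list of 12 photoreceptor genes summed to 20.1 to 3799 cRPKM in mutant eyes, 30.8 to 29368 cRPKM in WT sibling eyes and 80636 and 97543 cRPKM in the adult retinae. Lens genes summed to 1.59 and 0.86 cRPKM in the adult retinae, against 12109 cRPKM in the 5 dpf WT eyes, so the libraries labelled retina were nearly free of lens. The 5 dpf mutant library stood apart in holding 2151 cRPKM of 3 exocrine pancreas genes, against 13.96 cRPKM in its WT sibling library and at most 7.92 cRPKM in any other library. In pooled tissue, fewer cells of a type and less RNA per cell cannot be told apart.

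The receptor genes differed in level, and the more abundant one was low at 48 hpf and several times higher at 60 hpf. GRM6 ENSDARG00000025671 had 1.16, 5.15, 7.77 and 12.2 cRPKM in mutant eyes at 48, 60, 72 hpf and 5 dpf, against 1.25, 6.21, 8.25 and 20.7 cRPKM in WT sibling eyes. GRM6 ENSDARG00000017742 had 0.33, 1.10, 1.81 and 3.89 cRPKM in mutant eyes at the same stages, against 0.40, 1.40, 1.40 and 3.89 cRPKM in WT eyes. Both started low in either genotype. The siblings crossed between stages for the less abundant gene, and at 5 dpf only the more abundant gene had a lower cRPKM in the mutant library. The ratio of the 2 genes, ENSDARG00000025671 over ENSDARG00000017742, was between 2.28 and 5.89 in all 11 libraries, so the order never turned. At 5 dpf that ratio was 3.14 in mutant eyes and 5.33 in WT eyes. Reads shared between paralogs could blur such ratios.

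Of the channel genes, trpm1b already had a clear level in the head and at 48 hpf, and TRPM1 came later. trpm1b had 3.74 cRPKM in the 24 hpf head, and 5.35, 7.42, 8.69 and 13.2 cRPKM in mutant eyes at 48, 60, 72 hpf and 5 dpf, against 5.12, 6.47, 8.59 and 22.5 cRPKM in WT eyes. TRPM1 had 0.62 cRPKM in the head, and 0.74, 3.26, 3.86 and 8.97 cRPKM in mutant eyes, against 0.99, 2.19, 4.76 and 14.4 cRPKM in WT eyes. trpm1b was the higher of the pair in every library, but the gap narrowed with age in larval eyes. Over the stages 48, 60, 72 hpf and 5 dpf the ratio of trpm1b to TRPM1 was 7.23, 2.28, 2.25 and 1.47 in mutant eyes, against 5.17, 2.95, 1.80 and 1.56 in WT eyes. The head had a ratio of 6.03 and the adult retinae 2.01 and 1.41.

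TRPM1, also called melastatin, is expressed by pigment cells as well as by ON bipolar cells, and the eyes held pigment. A list of 10 melanin genes summed to 562 cRPKM in the head, to 581 to 1180.1 cRPKM in mutant eyes and to 571 to 1609.6 cRPKM in WT eyes, but to 17.3 and 13.1 cRPKM in the adult retinae. TRPM1 had 5.41 and 14.2 cRPKM in the adult retinae, against 14.4 cRPKM in 5 dpf WT eyes, and trpm1b had 10.9 and 20.02 cRPKM, against 22.5 cRPKM. Adult replicate 2 thus held nearly the larval level of both trpm1 genes with little pigment RNA, and replicate 1 held less of both. The share of the larval trpm1 signal that comes from pigment cells was not tested.

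The scaffold genes NYX and gpr179 started lowest, relative to their later level. NYX was counted 1 time in the 24 hpf head, and 3 and 7 times in mutant and WT eyes at 48 hpf. It then had 1.75, 2.78 and 13.5 cRPKM in mutant eyes at 60, 72 hpf and 5 dpf, against 1.35, 2.70 and 22.5 cRPKM in WT eyes. Nearly all NYX signal lay after 48 hpf. The 48 hpf WT level was 0.311% of that at 5 dpf, and the 72 hpf WT level 12.0%. gpr179 had 0.03 cRPKM in the head, and 0.14, 1.45, 1.80 and 2.85 cRPKM in mutant eyes at 48, 60, 72 hpf and 5 dpf, against 0.14, 1.47, 1.5 and 6.06 cRPKM in WT eyes. Its siblings lay side by side at 48 and 60 hpf, and at 5 dpf its gap between genotypes was the widest of the 8 genes as a ratio.

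PRKCA stayed under 1 cRPKM in eyes until 72 hpf. It had 0.31, 0.60, 0.71 and 2.81 cRPKM in mutant eyes at 48, 60, 72 hpf and 5 dpf, against 0.23, 0.72, 0.55 and 3.71 cRPKM in WT eyes. These early values rested on 20 to 58 counts a library, and the genotypes crossed between stages. VSX1 was the most abundant of the 8 genes in every library and followed another course. It had 7.87 cRPKM in the head, and 57.9, 179.6, 227 and 109 cRPKM in mutant eyes at 48, 60, 72 hpf and 5 dpf, against 84.9, 179.5, 225 and 139 cRPKM in WT eyes. VSX1 peaked at 72 hpf in both genotypes, at a stage when the other 7 WT levels stood at 12.0% to 39.8% of their 5 dpf WT values.

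**Figure D1:**
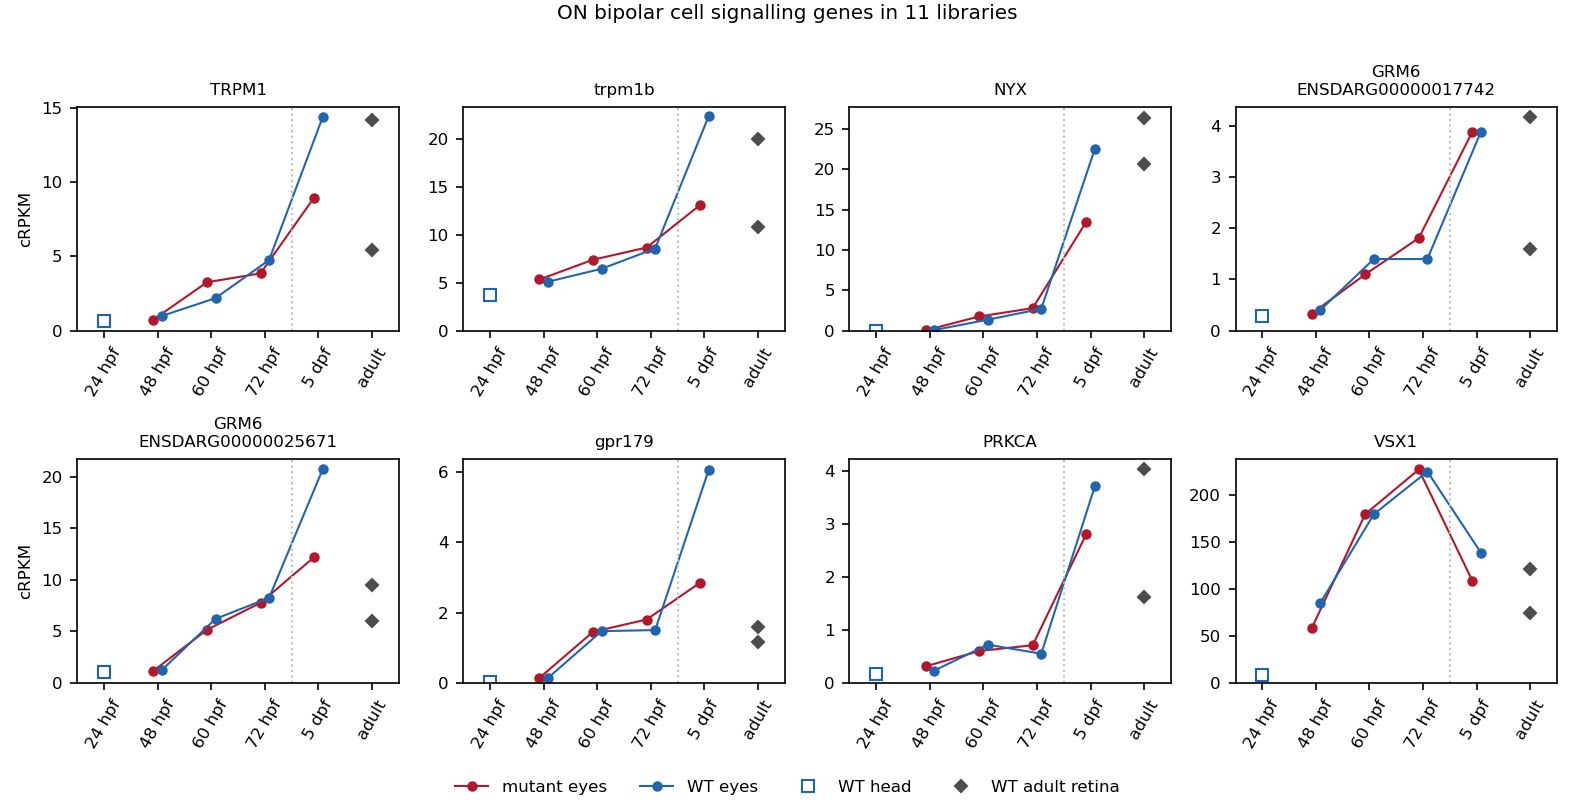
Level in cRPKM (vertical axis, its own scale in each panel) of each of the 8 genes in each of the 11 libraries, 1 point per library, by stage; red circles are mutant eyes, blue circles WT sibling eyes, the open square the WT head and grey diamonds the adult retinae, and the dotted line marks the change of library set. Lines join stages of a genotype: 7 genes are at their highest eye level at 5 dpf, VSX1 peaks at 72 hpf, and at 5 dpf the mutant point lies below the WT point in 7 of 8 panels.

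Single steps between stages rest on 1 library per genotype and have no replicate check. Of the 7 genes at 1 cRPKM or more in some library of this step, all 7 were higher at 60 than at 48 hpf in both genotypes, where 36.8% of all genes so measured were. In 4 of the 7, namely NYX, gpr179, GRM6 ENSDARG00000025671 and VSX1, the step was at least 2-fold in both genotypes on the log2(cRPKM + 1) scale, which understates changes of low genes, against 5.03% of genes. As plain ratios of 60 over 48 hpf, gpr179 was 10.4-fold higher in mutant eyes (95% counting interval 7.33 to 14.6) and 10.5-fold in WT eyes (7.80 to 15.5). NYX was 58.3-fold higher in mutant eyes, with an interval of 18.6 to 271 because of its 3 starting counts, and 19.3-fold higher in WT eyes (9.02 to 48.7). trpm1b took the smallest step, 1.39-fold in mutant and 1.26-fold in WT eyes. All such intervals cover counting error only.

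Between 60 and 72 hpf most steps were smaller, the widest being 2.17-fold for TRPM1 and 2.00-fold for NYX in WT eyes. Here 6 of 7 were higher in both genotypes, against 45.5% of genes, but 0 of 7 reached 2-fold in both, against 1.16%. In WT eyes the ratio of 72 over 60 hpf was 1.00 for GRM6 ENSDARG00000017742 (0.790 to 1.26), 1.02 for gpr179 (0.880 to 1.18) and 0.764 for PRKCA (0.493 to 1.15), so these neighbours did not differ beyond counting error. Between 72 hpf and 5 dpf, where the library set also changed, 7 of 8 were higher in both genotypes, against 34.8% of genes. TRPM1, NYX and PRKCA, 3 of the 8, were at least 2-fold higher in both on the log2(cRPKM + 1) scale, against 4.66% of genes. The 5 dpf level was higher than the 72 hpf level by 4.85-fold for NYX and 3.96-fold for PRKCA in mutant eyes, and by 8.34-fold and 6.75-fold in WT eyes. VSX1 alone went the other way, with 5 dpf over 72 hpf at 0.478 in mutant and 0.616 in WT eyes, a direction seen in both genotypes in 40.8% of genes.

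**Figure D2:**
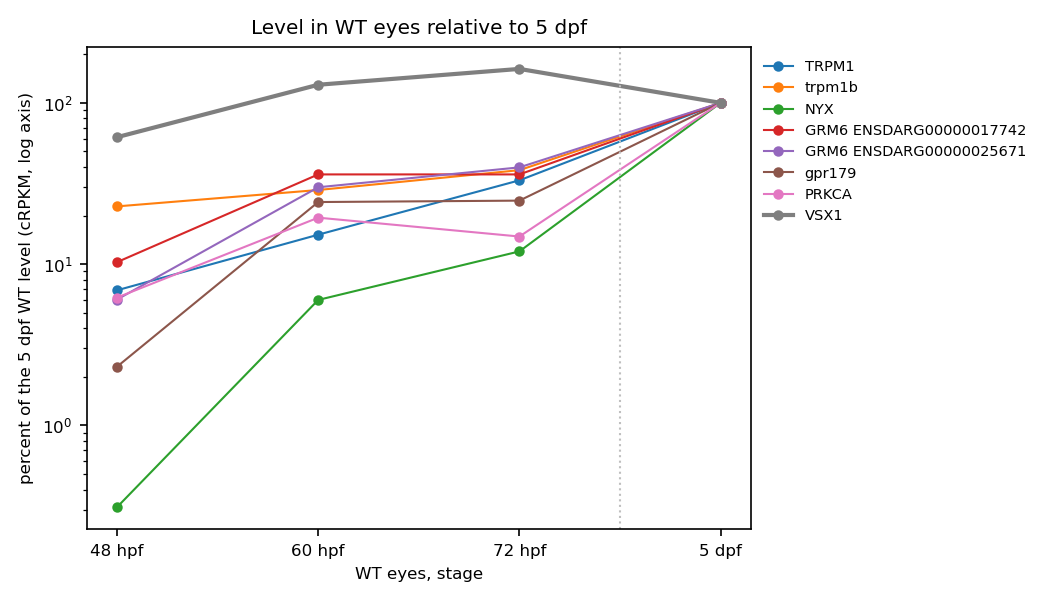
Level of each of the 8 genes in WT eyes (vertical axis, percent of the gene's own 5 dpf WT cRPKM, log scale) at 48, 60, 72 hpf and 5 dpf, 1 library per stage; the dotted line marks the change of library set. NYX starts lowest, at 0.311%, trpm1b starts at 22.8%, and VSX1 (thick grey line) is above 100% at 60 and 72 hpf.

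The change per doubling of age was then tested over the 8 eye libraries with edgeR's quasi-likelihood test, with genotype as a term and Benjamini-Hochberg adjustment over all genes. Of the 8 genes 7 rose with age and 0 fell, against 19.0% of genes that rose and 18.2% that fell. NYX rose by 4.73 ± 0.79 log2 units per doubling (SE, adjusted p = 0.00347 by edgeR), gpr179 by 2.79 ± 0.74 (0.0206), TRPM1 by 2.57 ± 0.35 (0.00153) and PRKCA by 2.57 ± 0.31 (0.00111). GRM6 ENSDARG00000025671 rose by 2.36 ± 0.48 (adjusted p = 0.00695 by edgeR), GRM6 ENSDARG00000017742 by 2.24 ± 0.34 (0.00232) and trpm1b by 1.31 ± 0.21 (0.00295). VSX1, which peaked in between, had 0.24 ± 0.53 (adjusted p = 0.747 by edgeR). Siblings share a stage, so these p-values can be too small. Without the 5 dpf pair, which belongs to the other library set, 2 genes passed, TRPM1 and GRM6 ENSDARG00000025671, where 1.60% of genes rose. Without the 72 hpf pair gpr179 missed the threshold (adjusted p = 0.0603 by edgeR). WT libraries alone gave 6 genes that rose, where 5.55% of all genes did, and mutant libraries alone gave 1, PRKCA, where 1.95% did. At an unadjusted p under 0.05 by edgeR, 7 of the 8 rose in WT libraries alone and 6 in mutant libraries alone. Such a p, in either direction, was held by 5397 of 20927 and 5680 of 21119 genes.

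The question of genotype was whether the 8 genes differ between mutant and WT siblings. At 48, 60 and 72 hpf the differences went both ways. At 48 hpf VSX1 had a mutant over WT ratio of 0.682 (95% counting interval 0.655 to 0.711), and at 60 and 72 hpf its ratio was 1.00 (0.975 to 1.03) and 1.01 (0.986 to 1.03). At 60 hpf TRPM1 was higher in mutant eyes, at 1.49 (1.18 to 1.90), as were NYX at 1.296 (1.02 to 1.66) and trpm1b at 1.15 (1.01 to 1.304), and GRM6 ENSDARG00000025671 was lower, at 0.829 (0.755 to 0.911). At 72 hpf TRPM1 was lower in mutant eyes, at 0.811 (0.669 to 0.982), and GRM6 ENSDARG00000017742 and gpr179 were higher, at 1.29 (1.04 to 1.62) and 1.20 (1.04 to 1.38). The direction thus turned between stages for TRPM1. Over the 3, 7 and 7 of the 8 genes that reached 1 cRPKM in either sibling at 48, 60 and 72 hpf, the median log2(cRPKM + 1) difference was −0.06, 0.00 and 0.01, and over all genes so measured it was 0.05, 0.07 and 0.05. Skeletal muscle genes summed to 2844 cRPKM in mutant and 1545 cRPKM in WT eyes at 48 hpf, and to 1204 and 453 cRPKM at 60 hpf; their part in these gaps was not tested.

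At 5 dpf 7 of the 8 genes were lower in the mutant library, where 24.9% of all genes at 1 cRPKM or more were lower. The mutant over WT ratio was 0.470 for gpr179 (95% counting interval 0.442 to 0.500), 0.585 for trpm1b (0.552 to 0.621), 0.589 for GRM6 ENSDARG00000025671 (0.565 to 0.613), 0.599 for NYX (0.569 to 0.630) and 0.623 for TRPM1 (0.575 to 0.676). PRKCA and VSX1 had smaller gaps, at 0.757 (0.669 to 0.859) and 0.784 (0.766 to 0.802). GRM6 ENSDARG00000017742 had 3.89 cRPKM in both libraries, a ratio of 1.00 (0.909 to 1.10). Less the median over genes at 5 cRPKM or more, its log2(cRPKM + 1) difference was −0.22. On the same measure the other 7 genes ran from −1.10 for gpr179 to −0.53 for PRKCA. None of the 6 genes at 5 cRPKM or more was 2-fold lower on the log2(cRPKM + 1) scale, against 2.52% of genes. The plain ratio of gpr179, 0.470, was past 2-fold, and that scale understates changes of low genes. The median over the 8 was −0.66 on that scale and that over all genes 0.25. Photoreceptor genes had a median of −2.82 in the same pair and a sum of 3799 cRPKM in mutant eyes, against 29368 cRPKM in WT eyes. Amacrine and ganglion cell lists had medians of −0.26 and −0.13, and Mueller glia genes 0.35. All 6 lens genes were lower in mutant eyes, with a median of −0.51 and a sum of 8244 cRPKM in mutant eyes, against 12109 cRPKM in WT eyes. The summed skeletal muscle genes were 1120 cRPKM in mutant eyes and 434 cRPKM in WT eyes, and the pancreas genes stood as given above; their part in the result was not tested. With 1 library per genotype, the 5 dpf gap has no replicate check.

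**Figure D3:**
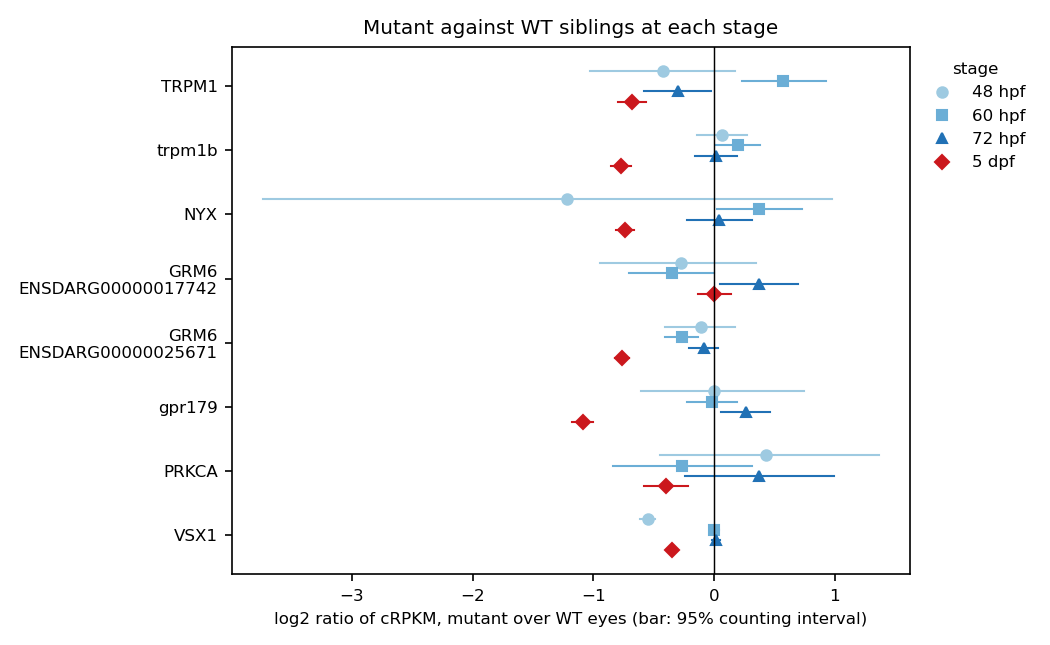
Ratio of cRPKM in mutant over WT sibling eyes (horizontal axis, log2) for each of the 8 genes at 48, 60 and 72 hpf (blue circles, squares and triangles) and 5 dpf (red diamonds), 1 library per genotype and stage; bars are 95% counting intervals. At 5 dpf 7 of 8 points lie left of 0, down to the ratio of 0.470 for gpr179, while the earlier points lie on both sides of 0.

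Over the 4 stages together, with stage as a factor and 3 residual degrees of freedom, 0 of 8 genes differed between mutant and WT eyes by edgeR, and 0 by DESeq2 or limma. Of all 21829 genes tested 1 was higher (0.00458%) and 0 lower (0.00%). All 8 fitted log2 changes lay below 0, against 52.3% of genes. So did 17 of 17 general bipolar genes and 22 of 25 other ON cascade genes, both taken up below. Ganglion cell and lens genes were below 0 in 7 of 7 and 6 of 6, and skeletal muscle genes in 0 of 6. Of the 8 genes 2 had an unadjusted p under 0.05 by edgeR in the lower direction, as 2.90% of genes did. These were GRM6 ENSDARG00000025671 with −0.47 ± 0.17 (SE, adjusted p = 0.881 by edgeR) and VSX1 with −0.37 ± 0.14 (same adjusted p). The others ran from −0.39 ± 0.28 for gpr179 to −0.18 ± 0.25 for PRKCA. GRM6 ENSDARG00000025671 alone was lower in 4 of 4 pairs, which 1.95% of genes were. In 2 of these pairs its ratio did not differ from 1 beyond counting error. These were 48 hpf, at 0.928 (95% counting interval 0.756 to 1.13), and 72 hpf, at 0.942 (0.868 to 1.02). TRPM1 was lower in 3 pairs, trpm1b in 1 and the rest in 2. Without the 5 dpf pair trpm1b, NYX, gpr179 and PRKCA had fitted changes between 0.02 and 0.08.

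Whether the mutant to WT ratio changed with age was tested with a genotype by log2 hours term and 2 residual degrees of freedom. Again 0 of 8 genes passed by edgeR, DESeq2 or limma, where edgeR called 0.224% of genes higher and 0.128% lower. The term was below 0 for 7 of 8 genes, as for 51.0% of all genes, and 4 had an unadjusted p under 0.05, as 5.50% did in that direction. gpr179 stood at −1.24 ± 0.35 log2 units per doubling of age (SE, adjusted p = 0.172 by edgeR), trpm1b at −0.94 ± 0.27 (0.177), GRM6 ENSDARG00000025671 at −0.72 ± 0.25 (0.286) and NYX at −1.11 ± 0.39 (0.302). GRM6 ENSDARG00000017742 stood at 0.01 ± 0.35. Without the 72 hpf pair trpm1b and gpr179 passed, with adjusted p of 0.0311 and 0.0171 by edgeR, where 2.60% of genes fell. Every genotype by age fit with a pair left out has fewer than 2 residual degrees of freedom. The fit without the 72 hpf pair also keeps the 5 dpf pair, which has no replicate check. Without the 5 dpf pair the term was above 0 for TRPM1, NYX, GRM6 ENSDARG00000017742, GRM6 ENSDARG00000025671, gpr179 and VSX1.

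Between 5 dpf eyes and adult retinae gpr179 alone of the 8 genes passed the test, and it was lower in the adult. Age and tissue both differ here, eyes with lens and pigment against retinae nearly free of lens. In every comparison of adult with 5 dpf libraries a change with age therefore cannot be told apart from a difference of tissue. In adult retinae gpr179 had 1.16 and 1.60 cRPKM (mean 1.38 ± 0.31, SD, n = 2), against 6.06 cRPKM in 5 dpf WT eyes. Both adult libraries lay below both 5 dpf libraries. It fell by 1.39 ± 0.43 on the log2 scale (SE, adjusted p = 0.0486 by edgeR), in a fit over all 11 libraries that takes the 5 dpf level from both genotypes. It was 1 of 8 genes to fall and 0 rose, against 16.6% and 17.5% of genes. That call was lost without adult replicate 1 (−1.15, adjusted p = 0.0963) and with adult and 5 dpf WT libraries alone (−1.97, adjusted p = 0.239, where 0.00% of all genes fell), by edgeR. Without adult replicate 2 both GRM6 genes fell as well, ENSDARG00000017742 by 1.04 and ENSDARG00000025671 by 1.33 (adjusted p = 0.0315 and 0.0113 by edgeR), where 23.0% of all genes fell. With either replicate left out the adult group is 1 library, which is assumed to vary like the other groups.

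The receptor GRM6 ENSDARG00000025671 had 5.99 and 9.53 cRPKM in adult retinae (mean 7.76 ± 2.503, SD, n = 2), against 20.7 cRPKM in 5 dpf WT eyes, and its fitted change of −0.82 ± 0.35 missed the threshold (SE, adjusted p = 0.113 by edgeR). NYX had 20.6 and 26.4 cRPKM in adult retinae, against 22.5 cRPKM in 5 dpf WT eyes (0.68 ± 0.37, adjusted p = 0.202 by edgeR). It was the second most abundant of the 8 genes there, after VSX1 with 74.5 and 121 cRPKM, against 139 cRPKM in 5 dpf WT eyes. GRM6 ENSDARG00000017742 had 1.59 and 4.18 cRPKM in adult retinae and PRKCA 1.62 and 4.03 cRPKM, against 3.89 and 3.71 cRPKM in 5 dpf WT eyes. The 5 dpf WT value lay between the adult replicates for NYX, PRKCA and this GRM6 gene and above both for the other 5.

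The adult replicates were unlike each other in these genes. Replicate 2 was higher for all 8, from 1.28-fold for NYX to 2.63-fold for GRM6 ENSDARG00000017742. The share of all genes that were higher in replicate 2 was not computed, so this cannot be called particular to the 8. Against 5 dpf WT eyes, 8 of 8 genes were lower in replicate 1 and 5 of 8 in replicate 2, as 56.5% and 58.9% of genes were. Skeletal muscle genes summed to 878 cRPKM in replicate 1 and 66.5 cRPKM in replicate 2, whose part in this gap was not tested. Photoreceptor genes summed to 80636 and 97543 cRPKM. Of the 10 melanin genes 9 fell in adult retinae, with a list median of −4.66 on the log2 scale. The fitted changes of TRPM1 and trpm1b were 0.07 ± 0.56 and 0.14 ± 0.43 (adjusted p = 0.935 and 0.819 by edgeR). That fit takes the 5 dpf level from both genotypes, and against 5 dpf WT eyes alone the changes of both trpm1 genes were below 0. Nothing in the labels says that the adult replicates came from separate sets of fish, so the spread between them may be technical. The p-values of that fit rest on 1 estimate of spread shared by all 11 libraries. The larval sibling pairs contribute to it as well as the adult replicates.

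**Figure D4:**
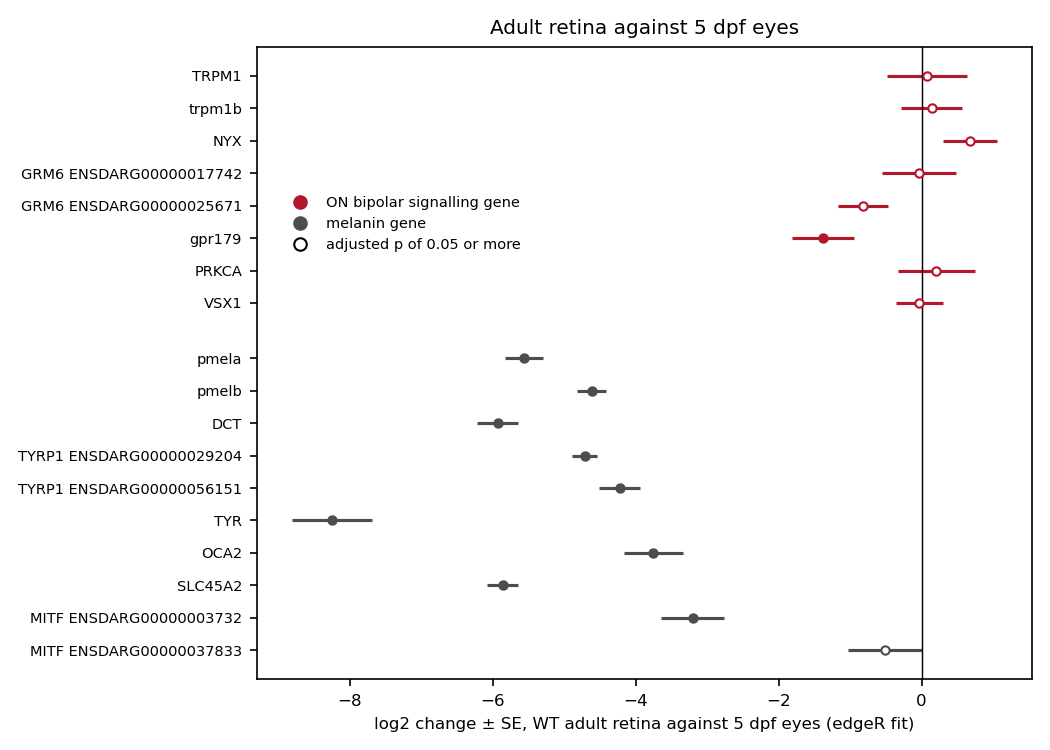
Fitted log2 change (horizontal axis, edgeR fit over 11 libraries) in WT adult retina against 5 dpf eyes of both genotypes. The 8 genes of the set, VSX1 among them, are red and the 10 melanin genes grey. Bars are SE and open points have an adjusted p of 0.05 or more. Red points lie between −1.39 and 0.68, with gpr179 the only filled red point, and 9 melanin genes are filled and lie far left.

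Other genes of the ON cascade were followed in the same fits. Of 25 measured genes for Go subunits, RGS proteins and their anchors, leucine-rich synaptic proteins, the presynaptic calcium channel and glutamate transporters, 14 rose with age and 0 fell, with a median of 2.40 log2 units per doubling of age, against −0.01 over all genes, of which 19.0% rose and 18.2% fell. RGS11, the GTPase-activating protein that speeds Go shut-off, rose by 2.61 ± 0.63 (SE, adjusted p = 0.0141 by edgeR). It had 0.66, 3.89, 4.59 and 7.64 cRPKM in mutant eyes, against 0.56, 5.17, 6.78 and 21.2 cRPKM in WT eyes. Its partner subunit GNB5 ENSDARG00000055377 rose by 2.87 ± 0.69 (0.0140), and the LRIT3 genes, whose mammalian counterpart is needed to bring TRPM1 to the dendritic tips, by 3.75 ± 0.93 (0.0159, ENSDARG00000055463) and 3.58 ± 0.62 (0.0036, ENSDARG00000057054). Several members of the list are also photoreceptor genes, among them gnb3b, RGS9BP and CACNA1F, and rose too. From which cells the rise of RGS11, GNB5 ENSDARG00000055377 and the LRIT3 genes came was not tested. Without the 5 dpf pair 1 of 25 rose, where 1.60% of all genes did.

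Between genotypes 0 of 25 of these genes passed by edgeR, DESeq2 or limma. By edgeR 5 had an unadjusted p under 0.05, all lower in mutant eyes, as 2.90% of all genes were. At 5 dpf 18 of 25 were lower in the mutant library, where 24.9% of all genes were, and the median was −0.51 on the log2(cRPKM + 1) scale, against 0.25 over all genes. The photoreceptor list had a median of −2.82 in the same pair. Several of the 25 are also photoreceptor genes, as given above, and their part in the genotype results of this list was not tested. For the change of the genotype ratio with age 0 of 25 passed by edgeR and 0 by limma. By edgeR 1 was higher and 7 lower at an unadjusted p under 0.05, where 5.50% of all genes were lower. DESeq2 called 4 lower, where it called 0.774% of all genes lower. Without the 72 hpf pair edgeR called 7 lower and without the 48 hpf pair 3, against 2.60% and 0.886% of all genes. The largest terms were −2.82 ± 0.59 for rgs9bp (SE, adjusted p = 0.0942 by edgeR), 2.36 ± 0.68 for gng13a (0.188), −1.72 ± 0.42 for GNB5 ENSDARG00000055377 (0.193) and −1.72 ± 0.76 for LRIT1 ENSDARG00000099406 (0.566). RGS11, named for having the lowest p of the list, stood at −1.43 ± 0.29 (0.0601). At 5 dpf gng13a, a Go gamma subunit, had 12.1 cRPKM in the mutant library and 5.49 cRPKM in the WT library, and so was among the 7 that were higher in the mutant.

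In the adult retina against 5 dpf eyes, where age and tissue both differ, 6 of the 25 rose and 2 fell. Of all genes 17.5% rose and 16.6% fell. cacna2d4a, a calcium channel subunit of photoreceptor terminals, had 56.1 and 43.2 cRPKM in adult retinae, against 6.42 cRPKM in 5 dpf WT eyes, and rose by 3.43 ± 0.37 (SE, adjusted p = 0.0012 by edgeR). LRIT1 and LRIT3 genes rose by 1.55 to 2.35, and rgs9bp by 3.37 ± 0.74. gng13a had 0.48 and 0.08 cRPKM in adult retinae, against 5.49 cRPKM in 5 dpf WT eyes, and fell by 4.90 ± 1.05 (adjusted p = 0.0182 by edgeR). ELFN1, a synaptic adhesion protein of rods that binds mGluR6 in mice, had 0.24 and 0.28 cRPKM in adult retinae, against 1.13 cRPKM in 5 dpf WT eyes, and fell by 2.03 ± 0.29 (adjusted p = 0.0032 by edgeR). With adult and 5 dpf WT libraries alone the 5 dpf group is a single library and edgeR called 0 of 22582 genes. Whether the calls of these 25 genes hold therefore cannot be judged there. Without adult replicate 2 there were 3 of the 25 that rose and 4 that fell, where 20.9% of all genes rose and 23.0% fell. In that fit the adult group is 1 library.

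General bipolar genes, not specific to ON cells, had age slopes above 0 in 15 of 17, against 49.8% of all genes. Of 17, 6 rose with age and 1 fell, where 19.0% of all genes rose and 18.2% fell, and the median was 0.51 log2 units per doubling. The calcium-binding protein genes cabp5a, cabp5b and cabp2a rose by 4.23 ± 0.85, 4.39 ± 0.35 and 3.53 ± 0.59 (SE, adjusted p = 0.0071, 0.0004 and 0.0033 by edgeR). GRIK1 ENSDARG00000069139, a kainate receptor subunit used by OFF bipolar cells in mammals, rose by 2.79 ± 0.47 (0.0033), and OTX2, a transcription factor of photoreceptors and bipolar cells, fell by 0.68 ± 0.21 (0.0336). At 5 dpf 14 of the 17 were lower in the mutant library, where 24.9% of all genes were, with a median of −0.34 on the log2(cRPKM + 1) scale. Between genotypes over the 4 stages 0 of 17 passed by edgeR, DESeq2 or limma. In the edgeR fit all 17 changes lay below 0, against 52.3% of all genes. By edgeR 2 were lower at an unadjusted p under 0.05, as 2.90% of all genes were. For the change of the genotype ratio with age 0 of 17 passed by edgeR. By edgeR 3 were lower at an unadjusted p under 0.05, as 5.50% of all genes were. DESeq2 called 1 lower, where it called 0.774% of all genes lower. The gene cabp2a stood at −1.32 ± 0.29 (SE, adjusted p = 0.0769 by edgeR). In the adult retina 4 rose and 2 fell, where 17.5% of all genes rose and 16.6% fell, led by cabp5a with 731 and 1076 cRPKM in adult retinae, against 13.0 cRPKM in 5 dpf WT eyes. With adult and 5 dpf WT libraries alone the 5 dpf group is a single library, so whether these calls hold cannot be judged there. Without the 5 dpf pair 0 of 17 rose with age by edgeR. In that fit 9 were higher at an unadjusted p under 0.05, where 5818 of all 21150 genes had such a p in either direction.

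The genes most like each of the 8 were ranked by Pearson correlation of log2(cRPKM + 1) over the 11 libraries, which share stage and library set, among genes at 5 cRPKM or more in some library (15130, or 15131 for GRM6 ENSDARG00000017742 and PRKCA). The correlations describe shared time courses and carry no test. The closest gene was FRMPD4 for TRPM1 (r = 0.985), PLCL1 for trpm1b (0.990), hyal6 for NYX (0.998), dbpa for GRM6 ENSDARG00000017742 (0.985), neto2b for GRM6 ENSDARG00000025671 (0.993), si:dkey-188p4.1 for gpr179 (0.983), PPP1R13B ENSDARG00000009142 for PRKCA (0.996) and cspg5b for VSX1 (0.994). trpm1b ranked second for TRPM1 (r = 0.980). Next came RAB11FIP4 ENSDARG00000090170 for TRPM1, ghrhra and dab2ipb for trpm1b, tmem200b and GLRA3 for NYX, CAMK1 ENSDARG00000060116 and rtn4rl2a for GRM6 ENSDARG00000017742, and ankrd6a and PLPPR5 ENSDARG00000057209 for GRM6 ENSDARG00000025671, with r of 0.975 to 0.997. For gpr179 they were cntn3a.1 and neto2b (0.982 and 0.978), for PRKCA DHTKD1 and UBXN6 (0.990 and 0.988), and for VSX1 TMEFF2 ENSDARG00000051824 and MTMR1 (0.992 and 0.991). The other 7 genes had a median rank of 161 to 1052 in the order of likeness to each gene other than VSX1, and of 2942 in the order of likeness to VSX1, whose correlations with the rest were 0.30 to 0.65.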

How the data were processed

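The deposited files have no header. Their values were, per Ensembl gene, a whole-number read count and a cRPKM, an RPKM-type level, both made by the authors on danRer10 (build per the submitters' processing notes). Aligner, counter, strand use and the correction that c stands for: not given in the sources used here. Overlapping genes, and paralogs that share reads, are uncertain as single genes. Of 31848 identifiers 2461 had no value, and 87.4% of the rest had a symbol in the gene table.

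The genes and lists were chosen with earlier results of these data known. Named were all 8 genes, list genes that passed a fit or otherwise had the largest changes, and the 3 closest patterns. Tests ran on counts in R 4.3.3 with edgeR 4.0.16 (TMM, filterByExpr, robust quasi-likelihood, Benjamini-Hochberg, threshold 0.05), tested on simulated data. SE is the log2 change over the square root of F, so approximate. DESeq2 1.42.0, limma 3.58.1 on log2(cRPKM + 1) or + 0.1, RLE, no filter and left-out libraries were alternatives. Counting intervals are exact, at 95%.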

Additional observations from a re-analysis of the deposited data

How the results depend on the processing

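The number of the 8 genes called in each of the 4 fits stayed within 1.5 times under RLE size factors, no filter and DESeq2. In the age slope 7 genes rose; leaving out 1 stage gave 2 to 7, the lowest without the 5 dpf pair, WT libraries alone gave 6 and mutant libraries alone 1 (PRKCA). In genotype by age 0 fell, and leaving out 1 stage gave 0 to 2, the highest without the 72 hpf pair. In adult against 5 dpf 1 fell, where 16.6% of all genes did. By limma with a pseudocount of 1 or 0.1 there were 2 that fell, where 23.8% and 25.4% of all genes did. With fewer libraries the calls changed, as given above. The cause was not tested.

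All sign changes were of values that had not passed. In the genotype effect, leaving out 1 stage gave −0.40 to 0.015 for trpm1b, −0.62 to 0.036 for NYX, −0.62 to 0.031 for gpr179 and −0.35 to 0.075 for PRKCA, each above 0 without the 5 dpf pair, and PRKCA was 0.0034 by limma with 0.1. In genotype by age, leaving out 1 stage gave −1.35 to 0.11 for TRPM1, −1.38 to 0.72 for NYX, −0.12 to 1.18 for GRM6 ENSDARG00000017742, −0.86 to 0.038 for GRM6 ENSDARG00000025671, −1.51 to 0.39 for gpr179 and −0.65 to 0.98 for VSX1, each highest without the 5 dpf pair. There VSX1 was 0.038 and 0.041 by limma, and GRM6 ENSDARG00000017742 was −0.029 with RLE, −0.013 by DESeq2 and −0.021 with linear age. In the age slope VSX1 was −0.71 without the 48 hpf pair and 2.78 without the 5 dpf pair. In adult against 5 dpf, without adult replicate 1 and without replicate 2, TRPM1 was 0.61 and −0.94, trpm1b 0.54 and −0.51, GRM6 ENSDARG00000017742 0.51 and −1.04, PRKCA 0.71 and −0.76, and VSX1 0.31 and −0.56. With limma at 1, limma at 0.1 and adult and 5 dpf WT libraries alone, TRPM1 was −0.41, −0.47 and −0.39, trpm1b −0.27, −0.28 and −0.38, and PRKCA −0.24, −0.32 and −0.23.

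Over all genes, the genotype effect had 1 higher and 0 lower by edgeR but 9 and 37 by DESeq2, and genotype by age 49 and 28 by edgeR, 119 and 169 by DESeq2 and 0 by limma. Adult against 5 dpf had 4073 higher and 3853 lower by edgeR, and 2583 and 5531 by limma with a pseudocount of 1. Genes with few counts at 48 hpf, such as NYX with 3 and 7, allow wide ratios. Siblings were paired by stage in both genotype fits, and no replicate number pairs other samples.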
